A study of Arabidopsis thaliana with 15 samples.

Results

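Cytosolic glycolysis is described here through 3 genes of the 16174 genes tested, each acting at a different step between hexose phosphate and pyruvate. AT1G20950 encodes an alpha subunit of the pyrophosphate-dependent phosphofructokinase (PFP), GAPC2 (AT1G13440) encodes a cytosolic glyceraldehyde 3-phosphate dehydrogenase, and AT2G36580 encodes a pyruvate kinase. The genes were taken from a fixed list of names, drawn up with earlier results of these data known, and each was read by 1 probe set that the annotation paired with exactly 1 gene. AT1G20950 and GAPC2 lie on chromosome 1 and AT2G36580 lies on chromosome 2 of Arabidopsis thaliana.

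Transcript levels were measured on 15 Affymetrix arrays of leaves of the Col-0 accession, with 3 arrays in each of 5 groups. All plants grew at 22 °C with 8 h of white light of 180 µmol m-2 s-1 and 16 h of dark per day, and every array held RNA pooled from 2 leaves of separate plants taken at noon. In individually darkened leaves (IDL), fully expanded leaves were enclosed in foil-coated plastic covers, 2 per plant, for 3 or 6 days while the other leaves of the rosette kept their light. In darkened plants (DP), the entire plant stood in a dark box for 3 or 6 days, and the light group was harvested at day 0, before any darkening. Light leaves were sampled only at day 0, so darkness and the 3 or 6 additional days of leaf age cannot be told apart in the comparisons with light. No genotype other than Col-0 and no added agent is named for any group. Plant ages were not given in the sources used here.

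Glycolysis breaks hexose phosphates down to pyruvate, and plants run the pathway in both the cytosol and the plastids. In the plant cytosol several steps have a second route. PFP interconverts fructose 6-phosphate and fructose 1,6-bisphosphate with pyrophosphate in place of ATP and can run either way. GAPC enzymes make NADH and 1,3-bisphosphoglycerate, while a non-phosphorylating dehydrogenase passes straight to 3-phosphoglycerate, and pyruvate kinase closes the pathway by turning phosphoenolpyruvate into pyruvate and ATP. In a lit leaf the cytosol receives triose phosphate from the chloroplasts, and in the dark it draws on sugars released from stored starch and sucrose. GAPC transcripts are also commonly taken as reference transcripts in plant expression work.

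The deposited values were intensities on a linear scale between 5.19 and 6633, and the medians of the arrays lay between 18.3 and 19.6. Correlations of log2 intensity over all probe sets were 0.98 to 0.99 between arrays of the same group and 0.81 to 0.98 between arrays of different groups, and no pair of arrays was identical. Differences are log2 differences of group means from limma, fitted on all arrays, and a gene was called at a Benjamini-Hochberg adjusted p under 0.05 over all genes tested. A fold is the ratio of the groups' geometric mean intensities, and the number of arrays limits the precision. Without any difference between groups, 3 arrays fail to overlap 3 others with a probability of 0.1. The share of all genes without overlap was not counted. Detection or background values were not used, so a low intensity can hold an unknown share of background. In leaf samples of mixed cells, fewer cells of a type and less RNA per cell cannot be told apart. No leaf mesophyll marker of 9 listed and no phloem marker of 3 listed had a probe set with exactly 1 gene, so the labelled tissue could not be checked through them. The root hair gene EXPA7, the 1 root marker of 4 listed that was measured, had intensities of 10.1 to 14.5 over the arrays and was called in none of the 9 comparisons.

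All 3 genes were lower in DP leaves than in light leaves at day 3 and again at day 6, when 18% and 19.6% of all genes tested were called lower. AT1G20950 and GAPC2 were also lower in IDL leaves than in light leaves at both days, a direction in which 18.8% of all genes were called at day 3 and 19.1% at day 6. AT2G36580 was not called between IDL and light leaves at either day. Higher calls made up 20.8% and 20.6% of all genes in IDL leaves and 17.2% and 20.3% in DP leaves at days 3 and 6. The share of all genes called in either direction was 39.6% and 39.7% for IDL leaves and 35.2% and 39.9% for DP leaves at days 3 and 6, so a called difference from light was common on these arrays. The 4 comparisons with light share the same 3 light arrays and are not independent of one another.

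**Figure D1:**
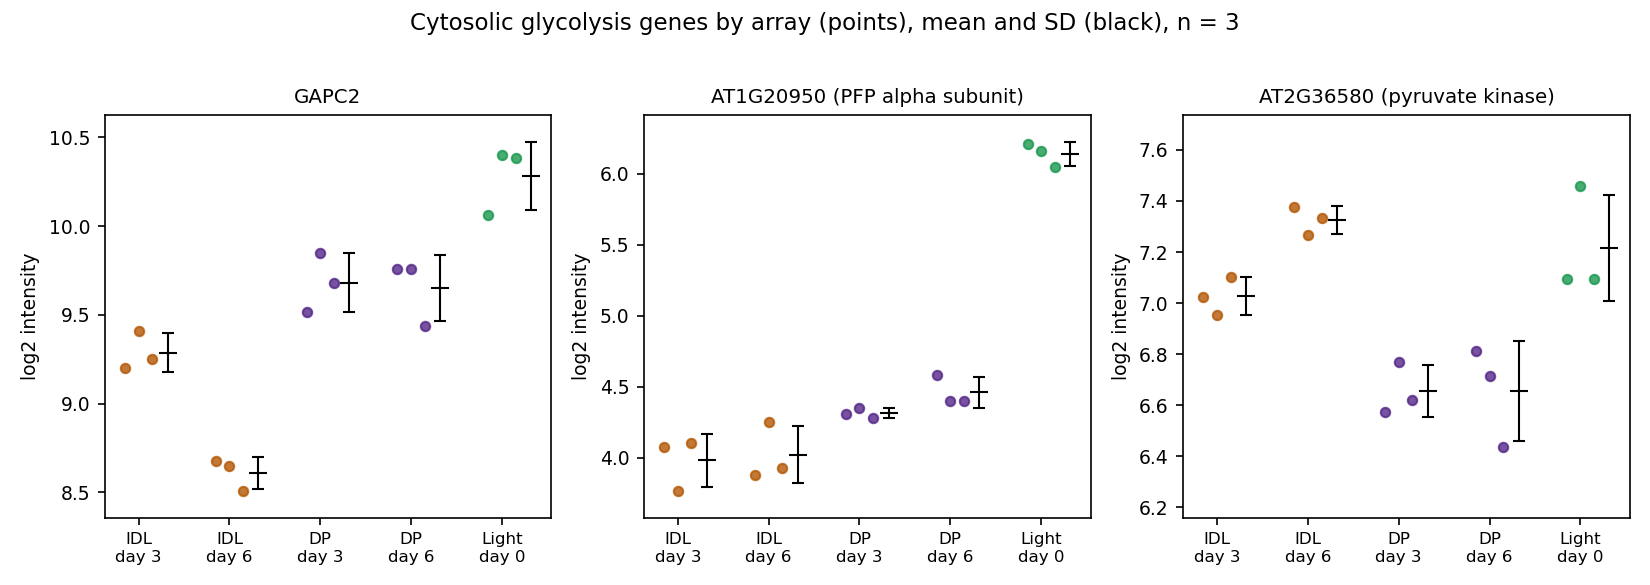
Log2 intensity of AT1G20950, GAPC2 and AT2G36580 on each array (points) with the group mean and SD in black, n = 3 per group, for individually darkened leaves (IDL), darkened plants (DP) and light leaves; each panel has its own vertical axis. AT1G20950 separates all darkened arrays from light, GAPC2 is lowest in IDL leaves at day 6, and AT2G36580 is lower in both DP groups than in the IDL and light groups.

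The PFP alpha subunit gene AT1G20950 showed the largest differences from light of the 3 genes. Its intensities were 16.8, 13.6 and 17.2 in IDL leaves at day 3 and 14.7, 19.1 and 15.2 at day 6. In DP leaves they were 19.8, 20.4 and 19.4 at day 3 and 24.0, 21.1 and 21.1 at day 6, and in light leaves they were 73.9, 71.3 and 66.0. Every darkened array was far below every light array. The level in IDL leaves was 4.46-fold lower than in light leaves at day 3 (log2 difference -2.16 ± 0.12, SE, limma adjusted p = 3.86e-12). At day 6 the IDL level was 4.33-fold lower (-2.12 ± 0.12, adjusted p = 4.03e-12). The DP level was 3.54-fold lower than in light at day 3 (-1.82, adjusted p = 6.94e-11) and 3.20-fold lower at day 6 (-1.68, adjusted p = 2.14e-10). The 4 darkened means on the log2 scale lay between 3.98 and 4.46, against a lower quartile of all genes of 3.44 to 3.51 across the groups and a mean of 6.14 in light. The darkened leaves thus stood nearer to the dim end of the array than the light leaves did.

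AT1G20950 was also lower in IDL leaves than in DP leaves at day 6, by 1.36-fold (-0.44, 95% interval -0.69 to -0.18, limma adjusted p = 0.00860). The arrays of the IDL and DP groups did not overlap at day 6. This call was lost without replicate 1 of IDL at day 6, where the difference was -0.37 with an adjusted p of 0.0558. At day 3 the arrays did not overlap either, and the difference of -0.33 (95% interval -0.59 to -0.08) missed the threshold with an adjusted p of 0.0693. With quantile normalization that difference was -0.37 (adjusted p = 0.0449), and with arrays centred on the reference genes it was -0.43 (adjusted p = 0.0226), so the call at day 3 depended on the scaling. Of the 9 measured reference genes, 1 was itself called higher in IDL than in DP leaves at day 3, beside 8.74% of all genes tested. Between day 6 and day 3, AT1G20950 differed by 0.04 in IDL leaves (95% interval -0.21 to 0.30, adjusted p = 0.899) and by 0.15 in DP leaves (95% interval -0.11 to 0.40, adjusted p = 0.620). The order of group means was light, DP day 6, DP day 3, IDL day 6 and IDL day 3 from high to low. Neither the neighbouring DP groups nor the neighbouring IDL groups were called as different from each other. The neighbours DP day 3 and IDL day 6 were not compared by a test. Their arrays did not overlap, but by a narrow gap (lowest DP intensity 19.4, highest IDL intensity 19.1).

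The other genes of the fructose 6-phosphate to fructose 1,6-bisphosphate step were measured in part. The list for upper cytosolic glycolysis held 18 genes, of which 5 were measured, and none of the ATP-dependent phosphofructokinase genes in it was among them. The PFP beta subunit gene AT1G12000, which encodes the catalytic subunit, had intensities of 20.4 to 30.4 over the IDL arrays, 25.5 to 40.5 over the DP arrays and 69.3, 84.2 and 86.3 in light leaves. It was lower than in light in all 4 darkened groups, by -1.56 and -1.71 in IDL leaves and by -1.10 and -1.47 in DP leaves at days 3 and 6 (the largest limma adjusted p of the 4 was 1.60e-06). Like AT1G20950 it was well below its light values on every darkened array.

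The second PFP alpha gene, AT1G76550, showed smaller differences than AT1G20950. Its intensities were 23.1 to 26.3 over the IDL arrays, 18.6 to 26.2 over the DP arrays and 35.9, 29.3 and 24.1 in light leaves, and all darkened groups but DP at day 6 overlapped the light arrays. In IDL leaves it differed from light by -0.20 at day 3 and -0.25 at day 6, and neither was called. In DP leaves it was lower than in light at day 6 (-0.53, limma adjusted p = 0.00308) and at day 3 (-0.36, adjusted p = 0.0426). Leaving out DP day 3 replicates 1 or 3, or light replicates 1 or 2, ended the day 3 call, with differences of -0.36 to -0.21. The call also ended with quantile normalization (-0.31, adjusted p = 0.0825), array weights (-0.32, adjusted p = 0.0663), the trended robust prior (adjusted p = 0.0556) and a fit of only the compared arrays (adjusted p = 0.0952). The 2 alpha genes have related sequences, and whether either probe set also captured the other transcript was not tested.

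**Figure D2:**
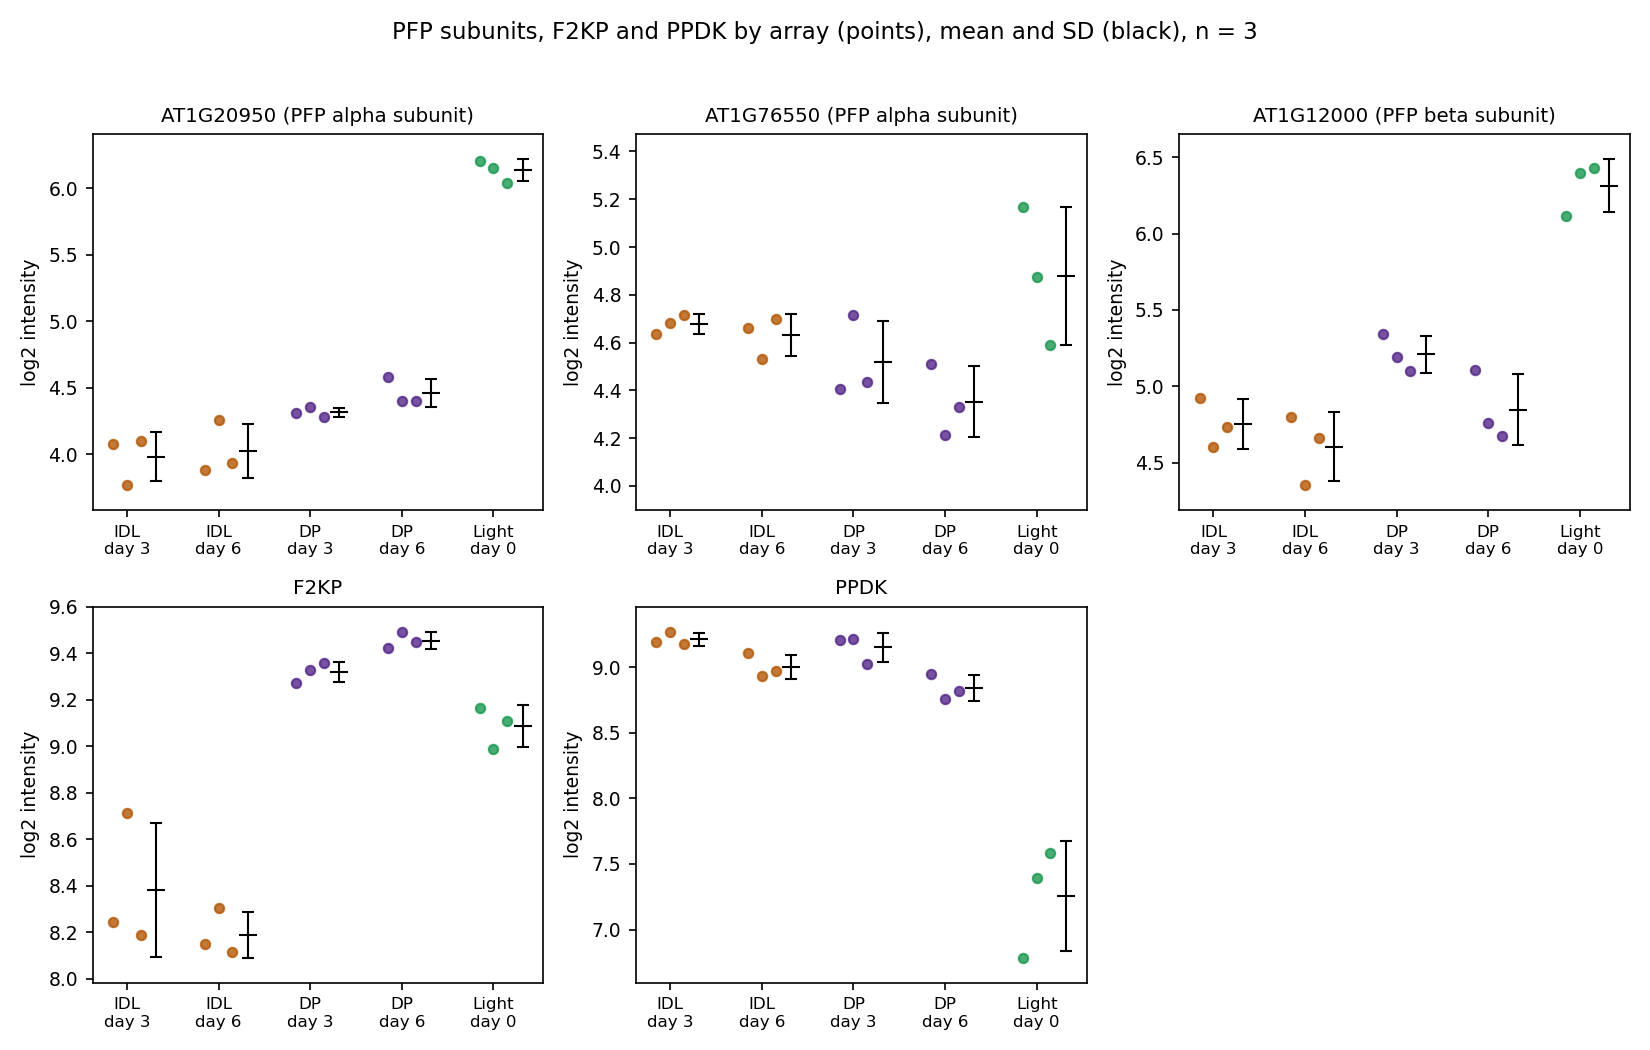
Log2 intensity of the PFP genes AT1G20950, AT1G76550 and AT1G12000, of F2KP and of PPDK on each array (points) with the group mean and SD in black, n = 3 per group, for individually darkened leaves (IDL), darkened plants (DP) and light leaves; each panel has its own vertical axis. AT1G20950 and AT1G12000 are below light on every darkened array, F2KP is below light in IDL leaves and not in DP leaves, and PPDK is above light on every darkened array.

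F2KP and PPDK were the 2 genes measured of the 9 listed for the phosphoenolpyruvate branch and gluconeogenesis. F2KP makes and breaks down fructose 2,6-bisphosphate, an activator of PFP, and its transcript separated the darkening treatments. Its intensities were 304, 420 and 292 in IDL leaves at day 3 and 284, 316 and 278 at day 6. They were 619, 643 and 656 in DP leaves at day 3 and 687, 720 and 699 at day 6, against 574, 508 and 552 in light leaves. All IDL arrays were below the light arrays and all DP arrays were above them. F2KP fell by 0.70 and 0.90 in IDL leaves relative to light at days 3 and 6 (limma adjusted p = 8.00e-05 and 3.43e-06). In DP leaves the difference was 0.23 at day 3, which was not called, and 0.37 at day 6 (adjusted p = 0.0223). Leaving out DP day 6 replicate 2 (0.35) or light replicate 2 (0.32) ended the day 6 call. Between IDL and DP leaves the F2KP difference was -0.94 at day 3 (adjusted p = 8.45e-06) and -1.26 at day 6 (adjusted p = 6.18e-08).

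PPDK, which interconverts pyruvate and phosphoenolpyruvate, was higher in every darkened group than in light. Its intensities were 579 to 617 in IDL leaves at day 3, 489 to 551 in IDL leaves at day 6, 520 to 595 in DP leaves at day 3 and 432 to 494 in DP leaves at day 6, against 110, 168 and 192 in light leaves. The differences from light were 1.96 and 1.75 in IDL leaves and 1.89 and 1.58 in DP leaves at days 3 and 6, with a largest limma adjusted p of 1.24e-08. PPDK was not called between IDL and DP leaves at either day.

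GAPC2, the glyceraldehyde 3-phosphate dehydrogenase gene, was lower in all 4 darkened groups and lowest in IDL leaves at day 6. Its intensities were 588, 680 and 609 in IDL leaves at day 3 and 409, 401 and 364 at day 6. They were 731, 922 and 821 in DP leaves at day 3 and 866, 868 and 694 at day 6, against 1068, 1351 and 1335 in light leaves. No darkened array reached a light array, and no IDL array of either day reached a DP array. GAPC2 was 1.99-fold lower in IDL leaves than in light leaves at day 3 (-0.99 ± 0.13, SE, limma adjusted p = 1.40e-06). At day 6 it was 3.18-fold lower (-1.67, 95% interval -1.94 to -1.40, adjusted p = 4.45e-10). In DP leaves it was 1.51-fold lower at day 3 (-0.60, adjusted p = 7.08e-04) and 1.55-fold lower at day 6 (-0.63, adjusted p = 3.81e-04).

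Set directly against DP leaves at day 6, GAPC2 in IDL leaves was 2.06-fold lower (-1.04, 95% interval -1.31 to -0.77, limma adjusted p = 1.46e-06). GAPC2 and AT1G20950 were called lower there, and AT2G36580 was called higher. Over all genes tested at day 6, 13.9% were called lower and 15.1% higher in IDL than in DP leaves, 29.1% in all. At day 3 the GAPC2 difference was -0.40 (95% interval -0.66 to -0.13, adjusted p = 0.0373), and 7.99% of all genes were called lower and 16.7% were called in either direction. The GAPC2 call at day 3 needed particular arrays. Leaving out IDL day 3 replicate 1 gave -0.35 (adjusted p = 0.134), leaving out IDL day 3 replicate 3 gave -0.38 (adjusted p = 0.0995), leaving out DP day 3 replicate 2 gave -0.31 (adjusted p = 0.172) and leaving out DP day 3 replicate 3 gave -0.40 (adjusted p = 0.0855).

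GAPC2 was the 1 gene of the 3 that was called between the days. In IDL leaves it was 1.60-fold lower at day 6 than at day 3 (-0.68 ± 0.13, SE, limma adjusted p = 0.00136), and the arrays of both days did not overlap. In that comparison 3.83% of all genes were called lower, 4.82% higher and 8.64% in either direction. In DP leaves the same difference was -0.03 (95% interval -0.30 to 0.24, adjusted p = 0.954), and the arrays of both days overlapped. None of the 3 genes was called in DP leaves between the days, also at an unadjusted p under 0.05, and 4.56% of all genes were called there in either direction (2.53% lower and 2.03% higher). The change from day 3 to day 6 differed between IDL and DP leaves by -0.65 ± 0.18 for GAPC2 (interaction term, 95% interval -1.02 to -0.27, adjusted p = 0.0391), a term that was called below 0 for 2.23% of all genes, above 0 for 3.13% and in either direction for 5.36%.

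The interaction call of GAPC2 lay close to the threshold. It was lost with arrays centred on their medians (-0.58, limma adjusted p = 0.0718) and with arrays centred on the reference genes (-0.63, adjusted p = 0.0656). It was also lost in 9 of the 12 fits that each left out 1 array. The arrays were replicates 2 and 3 of IDL at day 3, replicates 1, 2 and 3 of IDL at day 6, replicates 1 and 3 of DP at day 3, and replicates 1 and 2 of DP at day 6. In these 9 fits the difference was -0.68 to -0.56 and the adjusted p was 0.0574 to 0.107. The order of the GAPC2 group means was light, DP day 3, DP day 6, IDL day 3 and IDL day 6 from high to low, and of the neighbouring groups that were compared only the DP groups were not called as different. The neighbours DP day 6 and IDL day 3 were not compared by a test. Their arrays did not overlap, but by a narrow gap (lowest DP intensity 694, highest IDL intensity 680).

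**Figure D3:**
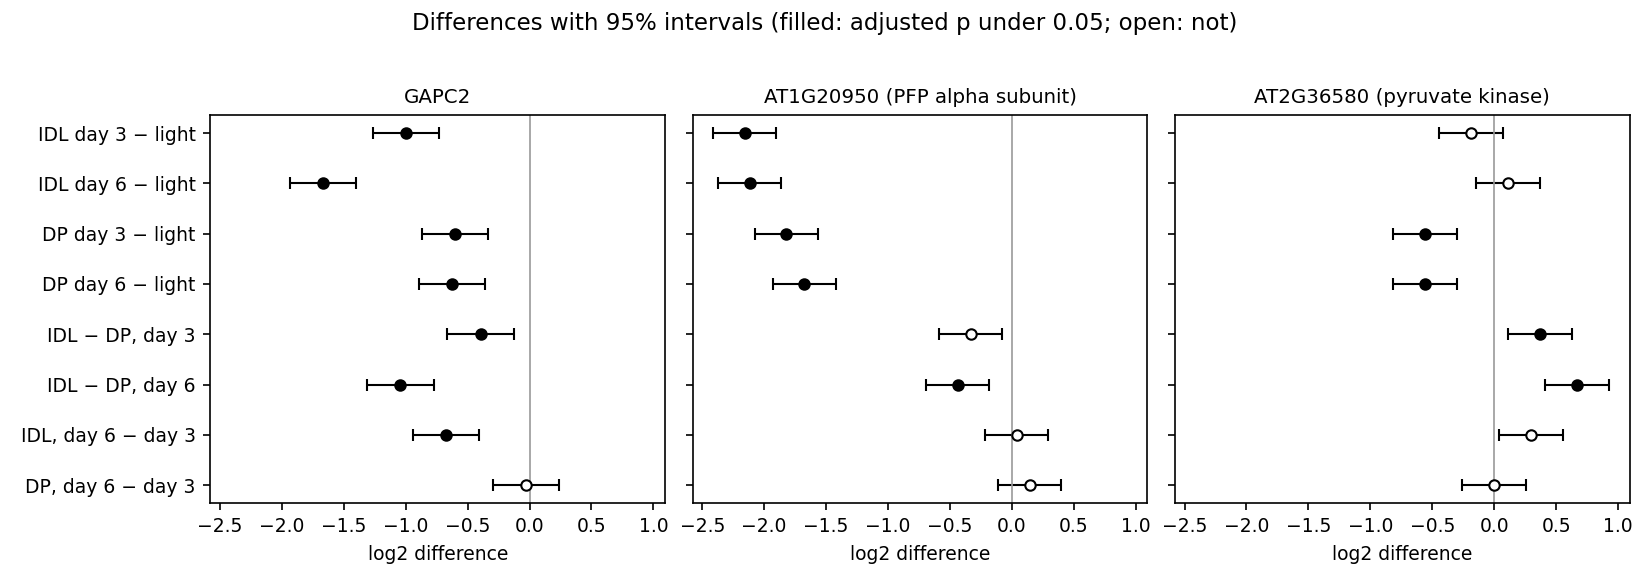
Log2 differences (horizontal axis) of 8 comparisons for AT1G20950, GAPC2 and AT2G36580 with 95% intervals from limma; filled points had an adjusted p under 0.05 and open points did not. The GAPC2 points run down from IDL day 3 to IDL day 6 against light while the DP points stay together, and the AT2G36580 points are near 0 for IDL against light and above 0 for IDL against DP.

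Other genes around the GAPC step differed between the treatments in their own ways. GAPC1, the closest relative of GAPC2, had no probe set with exactly 1 gene and was not analysed here. ALDH11A3, the non-phosphorylating glyceraldehyde 3-phosphate dehydrogenase, had intensities of 196, 220 and 263 in IDL leaves at day 3 and 133, 121 and 139 at day 6. They were 654, 805 and 655 in DP leaves at day 3 and 367, 372 and 382 at day 6, against 908, 975 and 988 in light leaves. The IDL arrays were below all DP arrays, and the DP arrays were below all light arrays. ALDH11A3 was 7.32-fold lower in IDL leaves than in light leaves at day 6 (-2.87, limma adjusted p = 2.49e-14), and 2.56-fold lower in DP leaves (-1.36, adjusted p = 5.75e-09). Between IDL and DP leaves it differed by -1.64 at day 3 and by -1.52 at day 6 (adjusted p = 2.17e-09 and 2.63e-09). Unlike GAPC2 it was lower at day 6 than at day 3 in both treatments, by -0.78 in IDL leaves (adjusted p = 1.60e-04) and by -0.91 in DP leaves (adjusted p = 1.08e-04). Its interaction term was 0.13 and was not called (adjusted p = 0.764).

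Upstream of GAPC2, the triose phosphate isomerase gene TPI interconverts both triose phosphates, and its intensities were 140 to 148 in IDL leaves at day 3, 178 to 210 in IDL leaves at day 6, 133 to 160 in DP leaves at day 3 and 110 to 142 in DP leaves at day 6, against 673, 703 and 702 in light leaves. The differences from light were -2.26 and -1.81 in IDL leaves and -2.22 and -2.52 in DP leaves at days 3 and 6, with a largest limma adjusted p of 3.42e-11. At day 6 TPI was 1.64-fold higher in IDL than in DP leaves (0.71, adjusted p = 6.45e-05), the direction opposite to that of GAPC2. AT5G42740, the cytosolic glucose 6-phosphate isomerase, was lower than in light by -1.26 and -1.21 in IDL leaves and by -1.42 and -1.64 in DP leaves (largest adjusted p 1.46e-08). Downstream, the enolase gene ENOC was lower than in light at day 6 in DP leaves (-0.71, adjusted p = 3.76e-04) and in IDL leaves (-0.45, adjusted p = 0.0159). The IDL call of ENOC was lost without replicate 1 of IDL at day 6 (-0.42) and without replicate 1 of light (-0.30).

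AT2G36580, the pyruvate kinase gene, was lower in DP leaves and was not called in IDL leaves relative to light. Its intensities were 130.2, 124 and 137 in IDL leaves at day 3 and 166, 154 and 161 at day 6. They were 95.2, 109 and 98.4 in DP leaves at day 3 and 112, 105 and 86.7 at day 6, against 137, 176 and 137 in light leaves. The DP arrays were below every IDL and light array, while the IDL arrays of both days overlapped the light arrays. The DP level was 1.48-fold lower than light at day 3 (-0.56 ± 0.12, SE, limma adjusted p = 9.28e-04) and 1.47-fold lower at day 6 (-0.56, adjusted p = 8.19e-04). The IDL level differed from light by -0.19 at day 3 (95% interval -0.45 to 0.07, adjusted p = 0.25) and by 0.11 at day 6 (95% interval -0.15 to 0.37, adjusted p = 0.559).

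The direct test between the treatments called AT2G36580 at both days. It was 1.59-fold higher in IDL than in DP leaves at day 6 (0.67, 95% interval 0.41 to 0.93, limma adjusted p = 2.05e-04). At day 3 it was 1.29-fold higher (0.37, 95% interval 0.11 to 0.63, adjusted p = 0.0426), where 8.74% of all genes were called higher. The arrays of the treatments did not overlap at either day. The day 3 call was lost with arrays centred on their medians (0.35, adjusted p = 0.0656), with quantile normalization (0.34, adjusted p = 0.0746) and with arrays centred on the reference genes (0.28, adjusted p = 0.193). It was also lost without replicates 1 (0.37), 2 (0.41) or 3 (0.33) of IDL at day 3 and without replicates 1 (0.33) or 3 (0.36) of DP at day 3, with adjusted p of 0.0573 to 0.145.

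Between day 6 and day 3, AT2G36580 differed by 0.30 in IDL leaves (95% interval 0.04 to 0.56, limma adjusted p = 0.161, unadjusted p = 0.0248), and the arrays of both days did not overlap. In DP leaves the difference was 0.00 (95% interval -0.26 to 0.26, adjusted p = 0.999). The interaction term was 0.30 (95% interval -0.07 to 0.66, adjusted p = 0.373). The order of group means was IDL day 6, light, IDL day 3, DP day 6 and DP day 3 from high to low. Among the IDL day 6, light and IDL day 3 groups no pair was called as different, nor were the DP groups from each other. The neighbours IDL day 3 and DP day 6 were not compared by a test. Their arrays did not overlap (lowest IDL intensity 124, highest DP intensity 112).

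All 10 listed cytosolic pyruvate kinase genes were measured, and AT2G36580 was 1 of 3 that were called higher in IDL than in DP leaves at each day. The other 2 were AT3G52990 and AT5G56350, and over all genes tested 8.74% were called higher at day 3 and 15.1% at day 6. No pyruvate kinase was called lower in IDL than in DP leaves, where 7.99% and 13.9% of all genes were, and the median difference of the 10 genes was 0.13 at day 3 and 0.16 at day 6, beside 0.02 and -0.03 over all genes tested. Against light, 2 of 10 were lower and none higher in IDL leaves at day 3, and 2 were lower and 2 higher at day 6. In DP leaves 3 were lower and 2 higher at day 3, and 4 were lower and 1 higher at day 6. Over all genes tested, 18.8% and 19.1% were lower and 20.8% and 20.6% higher in IDL leaves, and 18% and 19.6% were lower and 17.2% and 20.3% higher in DP leaves at days 3 and 6, so the counts of 2 in IDL leaves were near the background. The group means of AT5G63680, AT4G26390, AT3G04050, AT3G25960, AT3G55650 and AT3G55810 were 3.23 to 4.22 (log2), near the lower quartile of 3.44 to 3.51. The counts over the 10 genes thus include dim genes, in which a lower call has little room. Several of the 10 genes have closely related sequences, and whether their probe sets capture only 1 transcript each was not tested.

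AT3G52990 had intensities of 293, 265 and 308 in IDL leaves at day 3 and 297, 261 and 341 at day 6. They were 155, 152 and 134 in DP leaves at day 3 and 120.3, 94.5 and 104 at day 6, against 711, 707 and 690 in light leaves. As for AT2G36580 the DP arrays were below all IDL arrays, but here the IDL arrays were also below all light arrays. The differences from light were -1.29 and -1.24 in IDL leaves and -2.26 and -2.73 in DP leaves at days 3 and 6 (largest limma adjusted p 2.21e-08). Between IDL and DP leaves they were 0.97 at day 3 (adjusted p = 3.77e-06) and 1.49 at day 6 (adjusted p = 3.59e-09).

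AT5G56350, also a pyruvate kinase gene, was higher than light in IDL leaves and lower than light in DP leaves at day 6. Its intensities were 515, 411 and 488 in IDL leaves at day 3 and 690, 585 and 737 at day 6. They were 349, 303 and 328 in DP leaves at day 3 and 260, 241 and 274 at day 6, against 384, 412 and 410 in light leaves. The day 6 arrays of IDL leaves were above all light arrays, and the DP arrays of both days were below them. The differences from light at day 6 were 0.73 in IDL leaves (limma adjusted p = 2.41e-05) and -0.64 in DP leaves (adjusted p = 1.33e-04). The difference between IDL and DP leaves was 0.53 at day 3 (adjusted p = 0.00271) and 1.37 at day 6 (adjusted p = 8.47e-09).

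AT5G08570 was lower than light in all 4 darkened groups, by -1.13 and -1.33 in IDL leaves and by -0.99 and -1.15 in DP leaves at days 3 and 6 (largest limma adjusted p 6.08e-05). Its differences between IDL and DP leaves were -0.14 and -0.18, and neither was called. The 3 pyruvate kinase genes AT4G26390, AT3G25960 and AT3G55650 had no call in these comparisons, and their group means fell under the quartile of dim genes in 3, 1 and 2 of the 5 groups. AT5G63680, AT3G55810 and AT3G04050 had calls of at most 0.51 in size. They were dim as well, with group means of 3.52 to 4.22 (log2) against a lower quartile of all genes of 3.44 to 3.51. AT5G63680 was called at 0.41 in IDL leaves against light at day 6, and this was lost without replicates 1 or 3 of IDL at day 6 or replicate 1 of light (0.33 to 0.42), and with arrays centred on the reference genes (0.36, adjusted p = 0.0877). AT3G55810 was called at 0.51 in DP leaves at day 3, lost without replicate 1 of DP at day 3 or replicate 2 of light (0.40 to 0.42), and at 0.43 at day 6, lost without replicates 1 or 3 of DP at day 6 or replicate 2 of light (0.30 to 0.42). AT3G04050 was called at 0.35 in DP leaves at day 3, lost without replicates 1 or 3 of DP at day 3 or replicate 2 of light (0.25 to 0.36), with arrays centred on the reference genes (0.30), with quantile normalization (0.32) and with only the compared arrays (adjusted p = 0.0623).

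**Figure D4:**
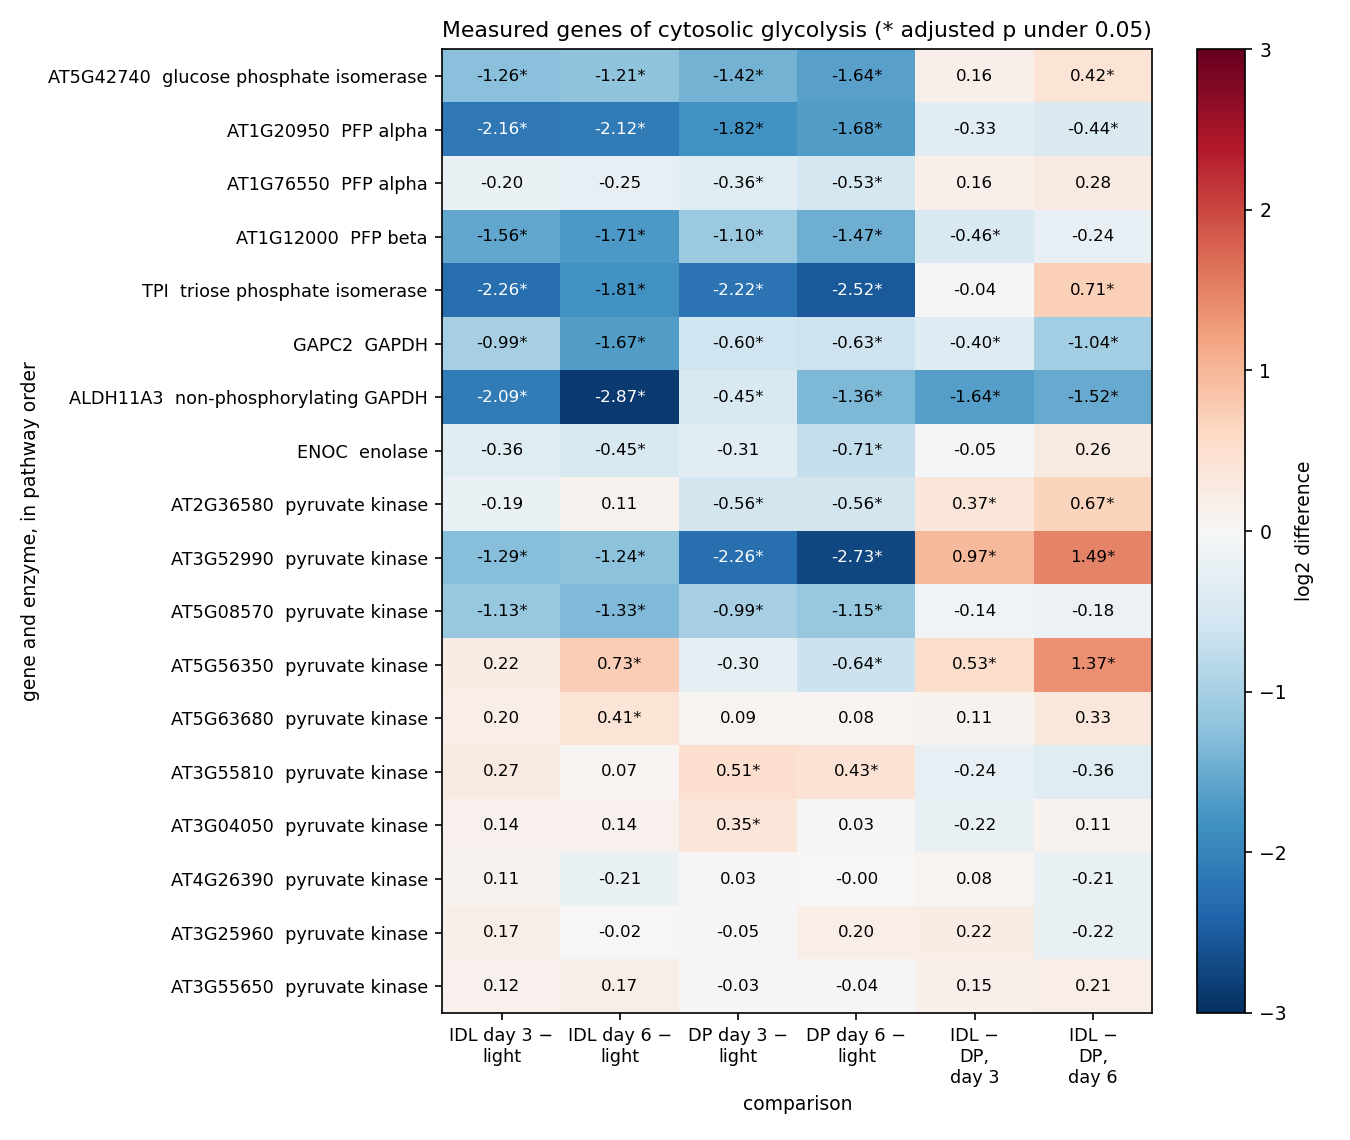
Log2 differences of the 18 measured genes of cytosolic glycolysis, in pathway order from top to bottom, with the comparisons from left to right; blue is lower and red is higher in the group named first, and an asterisk marks a limma adjusted p under 0.05. AT5G42740, AT1G20950, AT1G12000, TPI, GAPC2, ALDH11A3, AT3G52990 and AT5G08570 are called lower in all 4 comparisons with light, while the pyruvate kinases AT2G36580, AT3G52990 and AT5G56350 are called higher in IDL than in DP leaves at both days.

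Counted over the 36 listed genes of cytosolic glycolysis, 18 were measured, these 3 genes among them. In IDL leaves against light, 8 were lower and none higher at day 3, and 9 were lower and 2 higher at day 6. In DP leaves against light, 10 were lower and 2 higher at day 3, and 12 were lower and 1 higher at day 6. Over all genes tested, 18.8% and 19.1% were called lower and 20.8% and 20.6% higher in IDL leaves at days 3 and 6, and 18% and 19.6% were lower and 17.2% and 20.3% higher in DP leaves. The median difference of the 18 genes was -0.28 and -0.35 in IDL leaves and -0.40 and -0.63 in DP leaves at days 3 and 6, beside medians of 0.03 to 0.06 over all genes tested. The 5 measured genes of the upper part had medians of -1.56 and -1.71 in IDL leaves and -1.42 and -1.64 in DP leaves. The 13 measured genes of the lower part had medians of 0.11 and -0.02 in IDL leaves and -0.30 and -0.56 in DP leaves. Pyruvate kinase genes made up 10 of these 13, so the medians mostly describe that family. Their own medians were 0.13 and 0.09 in IDL leaves and -0.04 and -0.02 in DP leaves. The dim AT5G63680, AT4G26390, AT3G04050, AT3G25960, AT3G55650 and AT3G55810, with group means of 3.23 to 4.22 on the log2 scale, weigh on these medians. The brighter AT2G36580, AT3G52990, AT5G08570 and AT5G56350 all had DP means below light at both days. In IDL leaves AT3G52990 and AT5G08570 were below light at both days, AT2G36580 only at day 3 and AT5G56350 at neither. The remaining lower genes, GAPC2, ALDH11A3 and ENOC, had group means below light in every darkened group. Between IDL and DP leaves at day 6, 5 of the 18 were higher, 3 lower and 10 not called, beside 15.1% higher and 13.9% lower over all genes tested.

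Genes that feed the pathway or take its product were covered thinly, with 6 of 21 listed for sucrose cleavage and sugar phosphorylation, 4 of 10 for pyruvate fates, 2 of 20 for the plastid pathway and none of 7 for pyrophosphate use. The fructokinase gene AT2G31390, whose product phosphorylates fructose, had intensities of 78.9, 74.1 and 92.8 in IDL leaves at day 3 and 102, 104 and 95.9 at day 6. They were 54.6, 53.3 and 46.4 in DP leaves at day 3 and 38.3, 27.0 and 29.7 at day 6, against 45.5, 38.4 and 44.9 in light leaves. As with AT2G36580, the IDL arrays were above all DP arrays at both days. Against light it was higher in IDL leaves by 0.93 at day 3 (limma adjusted p = 5.19e-06) and by 1.24 at day 6 (adjusted p = 8.06e-08). In DP leaves it differed by 0.26 at day 3, which was not called, and by -0.45 at day 6, a call lost without DP day 6 replicate 2 (-0.34). Its difference between IDL and DP leaves was 0.67 at day 3 (limma adjusted p = 8.03e-04) and 1.69 at day 6 (adjusted p = 1.96e-09). Of the other 5 fructokinase genes, AT3G59480 was lower than light in all 4 darkened groups, by -0.43 and -0.79 in IDL leaves and by -0.60 and -0.54 in DP leaves, and its group means were below the lower quartile in 4 of the 5 groups. Its call in IDL leaves at day 3 was lost without replicate 1 of light (-0.35). AT5G51830 was lower in DP leaves by -0.65 and -0.61. In IDL leaves it differed from light by -0.39 and -0.12, and the call at day 3 was lost without any 1 of IDL day 3 replicates 1, 2 and 3 and light replicates 2 and 3 (-0.44 to -0.28). It was also lost with quantile normalization (-0.35, adjusted p = 0.0750), the replicate block (adjusted p = 0.0556) and the trended robust prior (adjusted p = 0.0526). AT1G06030 had differences of 0.72 in IDL leaves and 0.68 in DP leaves at day 6, called and lost without replicate 3 of light (0.61 and 0.57), without replicate 2 of IDL at day 6 (0.58) and without replicates 2 or 3 of DP at day 6 (0.61 and 0.47). Its light intensities were low, at 9.12 to 11.7, and its light mean was below the lower quartile. AT1G06020 and AT4G10260 had no call.

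Past pyruvate kinase, MAB1, a subunit of mitochondrial pyruvate dehydrogenase, was lower than light in all 4 darkened groups, with differences of -0.93 at day 6 in IDL leaves and -1.36 at day 6 in DP leaves (largest limma adjusted p 2.21e-07). The lactate dehydrogenase gene AT4G17260 was lower by -0.63 and -0.77 in IDL leaves and by -0.81 and -0.83 in DP leaves. The pyruvate decarboxylase gene AT5G01320 was higher than light by 1.43 and 1.03 in IDL leaves at days 3 and 6 (adjusted p = 8.52e-06 and 3.56e-04), and by 0.73 in DP leaves at day 6 (adjusted p = 0.00788), a call lost without replicate 1 of DP at day 6 (0.57). PDC3 had no call and was below the lower quartile in all 5 groups. In the plastid list the phosphoglycerate kinase gene AT1G56190 was lower by -2.68 and -3.13 in IDL leaves and by -2.54 and -2.95 in DP leaves (largest adjusted p 4.85e-13). AT3G49160, a pyruvate kinase family gene, differed from light by 0.36 and 1.10 in IDL leaves and by 0.63 and 0.56 in DP leaves. Its DP calls were lost without replicate 2 of light (0.23 and 0.15) and in 2 and 3 further fits that left out replicates 1 or 2 of DP at day 3 or any DP array at day 6 (0.49 to 0.65). With only the compared arrays in the fit, both DP calls were lost (adjusted p = 0.0858 at day 3 and 0.0999 at day 6). The day 6 call was also lost with the replicate block (adjusted p = 0.0625), with arrays centred on their medians (0.53, adjusted p = 0.0562) and with the trended robust prior (adjusted p = 0.0641).

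Of 4 guard cell markers listed, 2 were measured, and they differed from light in opposite directions. Their summed intensity was 67.2 to 79.2 in IDL leaves at day 3 and 64.9 to 74.9 at day 6, 90.6 to 96.4 in DP leaves at day 3 and 66.3 to 84.7 at day 6, and 166 to 172 in light leaves. Neither marker was at 0. AT1G22690 fell by 2.46 and 3.16 in IDL leaves and by 1.51 and 2.04 in DP leaves relative to light, while FMA differed by 0.30 and 0.40 in IDL leaves and by 0.21 and 0.17 in DP leaves. FMA was called in IDL leaves at day 6 alone. The part of guard cells in the lower levels of AT1G20950 and GAPC2 was not tested.

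The spread of the 3 genes within groups was near that of other genes. The pooled SD on the log2 scale was 0.14 for AT1G20950, 0.15 for GAPC2 and 0.14 for AT2G36580, beside a median of 0.16 over all genes tested. The range of group means was 2.16 for AT1G20950, 1.67 for GAPC2 and 0.67 for AT2G36580, so in each gene the groups spread more widely than the arrays within them. Over the 15 arrays the log2 intensity of GAPC2 had a Pearson r of 0.78 with AT1G20950 and -0.23 with AT2G36580, and AT1G20950 had 0.24 with AT2G36580. After group means were removed these were -0.13, 0.61 and 0.23. The arrays share their groups, so the first set of values reflects the group means, and all are descriptions over 15 arrays.

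The genes with a symbol that followed each of the 3 most closely over the 15 arrays were found by Pearson correlation of log2 intensity among 1607 genes with a symbol, as a description. For AT1G20950 they were SBE2.2, a starch branching enzyme (r = 0.98), CRR42, a chloroplast protein (r = 0.98), and SBPASE, the sedoheptulose bisphosphatase of the Calvin cycle (r = 0.98). For GAPC2 they were PSB27, a photosystem II assembly protein (r = 0.96), FZL, a chloroplast membrane GTPase (r = 0.95), and CHLM, a methyltransferase of chlorophyll synthesis (r = 0.95). For AT2G36580 they were EULS3, a lectin (r = 0.92), SCPL49, a serine carboxypeptidase-like protein (r = 0.91), and SPP, a signal peptide peptidase (r = 0.91). The closest values were lower for AT2G36580 than for the other 2 genes. These r values also mostly reflect group means and do not measure the size of a change. SBPASE, for example, had log2 means of 10.06 in light and 4.55 in IDL leaves at day 6, beside 6.14 and 4.02 for AT1G20950.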

How the data were processed

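The deposited files give, for each array, 1 linear intensity for every probe set. The R package oligo made them, per the submitters' processing notes. How oligo was run (version, background correction, normalization, summary of probes) was not given in the sources used here. About 40 mg of leaf was extracted and 6 µg of total RNA labelled per array, per the labels' protocols. Of 26676 probe sets, 16179 had exactly 1 gene, 588 several and 9909 none in the annotation used. The last 2 kinds were left out. The brightest probe set stood for each of 5 genes with more than 1, which gave 16174 genes. Gene identifiers of 16067 probe sets matched the RefSeq table of assembly TAIR10.1, which gave their locus codes and names. The others kept the name in the annotation, and 1607 genes carried a symbol.

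The deposited intensities were converted to log2 and fitted with limma 3.58.1 (lmFit and eBayes, prior of 10.5 degrees of freedom; R 4.3.3) over all 15 arrays, each group having its own mean. There were 9 comparisons, tested two-sided, each adjusted by Benjamini-Hochberg over all genes. The fit was tested on simulated data. Replicate numbers did not pair the arrays: 24 correlations of deviations between same-numbered arrays were -0.08 to 0.08. The 3 genes, the gene lists and the rule for named genes were chosen with earlier results of these data known. The rule names every measured gene of lists with up to 6 measured genes, all genes of the steps of the 3 genes, and the 3 largest called changes of other lists in each treatment against light at day 6. Of 103 listed genes of the pathway and its branches, 32 were measured. Alternatives were 3 other scalings, a trended robust prior, array weights, a fit of the compared arrays, a filter on dim genes, all probe sets, the replicate block and leaving out each array.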

Additional observations from a re-analysis of the deposited data

Results flagged for a closer look

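The interaction term of the limma fit was called in 4 of the 32 measured genes of the pathway and its branches. Among all genes tested it was called for 5.36%, with 3.13% above 0 and 2.23% below 0. In these 4 genes the change from day 3 to day 6 differed between IDL and DP leaves. The difference of the changes, IDL minus DP, was -0.65 for GAPC2, 1.02 for the fructokinase gene AT2G31390 (adjusted p = 0.00171), 0.76 for TPI (adjusted p = 0.00807) and 0.85 for the pyruvate kinase gene AT5G56350 (adjusted p = 0.00322). GAPC2 was lower at day 6 in IDL leaves and was not called in DP leaves, as given with its values above, and its interaction call was lost in several refits. TPI and AT5G56350 were higher at day 6 than at day 3 in IDL leaves (0.45 and 0.51), and AT2G31390 was lower at day 6 than at day 3 in DP leaves (-0.71). The TPI change in IDL leaves was lost without replicates 2 or 3 of IDL at day 3 or replicates 1 or 3 of IDL at day 6 (0.41 to 0.45). That of AT5G56350 was lost without replicate 2 of IDL at day 3 (0.41) and without replicate 3 of IDL at day 6 (0.44).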

How the results depend on the processing

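No difference of AT1G20950, GAPC2 or AT2G36580 changed its direction where it was called. All calls of these genes against light held in every alternative and with each array left out. With other settings 236 of their results were unchanged, either called as before or not called as before, while 5 lost a call and 2 gained one. The same count of unchanged results, called or not, was 161 with 1 array left out, where 19 lost a call. Those lost were the IDL against DP calls at day 3 of GAPC2 and AT2G36580, the day 6 call of AT1G20950 and the GAPC2 interaction, with their values in the report. Centring on array medians gave 0.35 for AT2G36580 between IDL and DP at day 3 and -0.58 for the GAPC2 interaction, both no longer called. Centring on the reference genes gave 0.28 and -0.63 for them, also not called, and -0.43 for AT1G20950 between IDL and DP at day 3, now called. Quantile normalization gave 0.34 for AT2G36580, not called, and -0.37 for AT1G20950, called. Centring moves all genes of a comparison by the same amount, which was -0.09 for IDL against DP at day 3 on the reference genes. Why the scalings differed was not tested. Over the left-out arrays the GAPC2 difference of IDL from DP at day 3 was -0.48 to -0.31 and its interaction was -0.75 to -0.56. The difference of AT2G36580 at day 3 was 0.33 to 0.43 and that of AT1G20950 at day 6 was -0.55 to -0.37. A fit of all probe sets tested 26676 features, beside 16174 genes in the main fit. Against light, 10801 (DP day 3), 12070 (DP day 6), 11961 (IDL day 3) and 12045 (IDL day 6) probe sets were called. The main fit called 5694, 6456, 6400 and 6422 genes there. Between IDL and DP 5416 and 8852 probe sets were called at days 3 and 6, 1635 and 2764 between the days in DP and IDL, and 1852 by interaction. The number called between the days was 420 to 602 in DP leaves and 918 to 1169 in IDL leaves over the left-out arrays, beside 738 and 1398 with all arrays. The lowest DP counts, 420 and 441, came without replicate 2 of day 6 and replicate 1 of day 3. The lowest IDL count came without replicate 2 of day 3. With the replicate block these counts were 727 and 1411, and the block changed no call of the 3 genes. Centring on the reference genes moved the share of higher calls to 35.7% in IDL against light at day 3 (52.6% without it), to 36.0% and 40.1% in IDL against DP at days 3 and 6 (52.2% and 52.1%), to 67.6% between the days in DP (44.4%) and to 78.1% in IDL (55.7%). Centring on array medians moved that of IDL between the days to 66.9% and that of the interaction to 71.9% (58.5%). The median of all genes moved by -0.15 under reference centring in IDL at day 3 against light. The 9 measured reference genes were not all unchanged themselves. Against light, 2 were called higher and 1 lower in DP leaves at day 3, and 1 higher and 3 lower at day 6. In IDL leaves 2 were higher and none lower at day 3, and 2 higher and 1 lower at day 6. Over all genes tested, 35.2% and 39.9% were called in either direction in DP leaves and 39.6% and 39.7% in IDL leaves at these days. The counts of reference genes were thus near or under the background. Background could not be separated from signal, which limits AT1G20950 most, since its darkened means are the closest to the dim quartile.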
